A study of Homo sapiens and Mus musculus with 7 samples.

Results

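The genes described here encode the machinery that makes and uses small RNAs: DROSHA, DGCR8, DICER1, XPO5, TARBP2, AGO1, AGO2, AGO3, AGO4 and TNRC6A. They were taken as the probe sets whose only annotated gene symbol is one of these 10 genes. On the human arrays 9 of the 10 had such a probe set, 31 probe sets in all, out of 19775 genes with one. DGCR8 had none, since its 4 human probe sets are annotated together with a second gene, and AGO2 kept 1 probe set while 3 were shared with another gene. On the mouse arrays all 10 had one, 34 probe sets among 18193 genes.

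Total RNA of 7 samples was hybridised to expression arrays, 1 array per sample. The human arrays came from HeyA8, an ovarian cancer line, and HepG2, a liver cancer line. In HeyA8 FAS was stably knocked down with the hairpin shRNA4 or with the hairpin shRNA6, beside a PLKO control. In HepG2 it was stably knocked down with shRNA6, again beside a PLKO control. Liver from a Fas knock-out mouse and from a wild-type mouse, both C57/BL6 males aged 2 months, gave the remaining arrays, and these mice carried no hairpin. pLKO is a lentiviral vector from which hairpins are expressed. The labels do not say whether the PLKO control carried a hairpin of its own, whether the lines were clones or pools, or which Fas allele the knock-out mouse bore. Since each group was 1 array, no single comparison has a replicate check.

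In background, a microRNA begins as a hairpin in a long nuclear transcript. DROSHA with its partner DGCR8 cuts the hairpin out, XPO5 (exportin-5) carries it to the cytoplasm, and DICER1 with its partner TARBP2 trims it to a short duplex. One strand is loaded into an Argonaute protein (AGO1 to AGO4), and TNRC6A (GW182) connects the Argonaute to the enzymes that deadenylate and decap the target messenger RNA. AGO2 is the human Argonaute best known for slicing a fully paired target. A short hairpin RNA made from a vector enters the same route at nuclear export, so cells that express one share these proteins between it and their own microRNAs. The question here was whether the messenger RNAs of this machinery stood at other levels on the hairpin arrays than on their controls.

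The array values are signal intensities on a linear scale. Array medians lay between 57.8 and 63.4 on the human arrays and at 75.2 and 79.9 on the mouse arrays. FAS checked the labels. Its signal was 1184 with shRNA4 and 856 with shRNA6 against 2104 in the HeyA8 control, 631 with shRNA6 against 1087 in the HepG2 control, and 169 in the knockout against 560 in the wild-type liver, where the position of the probe set relative to the deletion is unknown. The liver markers ALB, APOA1, APOA2, TTR, TF, SERPINA1 and AFP were above the array median on both HepG2 arrays, and on the HeyA8 arrays they were below it except AFP (88.7 to 135) on all of them and TTR with shRNA4 (97.4). The ovarian cancer markers PAX8 and WT1 were above the median on all human arrays, at 604 and 593 for PAX8 and 204 and 216 for WT1 in HepG2, against at least 2860 for PAX8 and at least 830.0 for WT1 in HeyA8. MUC16, another such marker, was below it on every human array. VIM gave 26.1 with shRNA6 and 87.2 in the control of HepG2, against at least 22006 in HeyA8. The keratins did not favour HeyA8. KRT8 gave 9135 with shRNA6 and 10807 in the control of HepG2, against 8409 with shRNA4, 6923 with shRNA6 and 7151 in the control of HeyA8. KRT18 overlapped, at 18752 and 21446 in HepG2 against 20386, 18110 and 17240 in HeyA8. Hepatocyte markers were above the median in both livers.

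No member was at least 2-fold different from its control in any of the 4 comparisons, a count that the small share of all genes past that threshold makes no result about the members. Among all genes the shares at least 2-fold higher and lower were 2.37% and 2.38% with shRNA4 in HeyA8 and 2.02% and 2.21% with shRNA6 in HeyA8. They were 2.65% and 2.56% in HepG2. For the livers they were 1.77% and 2.57%. At 1.5-fold 1 member was higher, with shRNA4, and no other member differed in any comparison. The shares of all genes at least 1.5-fold higher and lower were 6.21% and 6.73% with shRNA4, 4.67% and 6.23% with shRNA6 in HeyA8, 6.48% and 6.16% for HepG2, and 4.89% and 7.63% for the livers. With shRNA4 the members were spread over the distribution. Of all genes 5.26% had a higher ratio than TNRC6A, 7.70% than XPO5, 10.3% than AGO3 and 12.0% than DICER1. The same share was 15.1% for TARBP2, 20.2% for AGO1 and 44.3% for DROSHA, while 12.5% had a lower ratio than AGO2 and 12.9% than AGO4. Log2 ratios of signal plus a pseudocount are used below, and they understate the differences of dim genes. With shRNA4 the ratios of 7 of the 9 members were above 0 and their median was 0.33, beside a median of 0.03 over 12175 genes of which 53.4% were above 0. With shRNA6 in HeyA8 6 of 9 were above 0 and the median was 0.08, beside 0.01 over 12152 genes of which 51.2% were above 0. In HepG2 1 of 9 was above 0 and the median was -0.12, beside -0.01 over 12167 genes of which 48.3% were above 0. In mouse liver 4 of 10 were above 0 and the median was -0.09, beside -0.02 over 12047 genes of which 47.3% were above 0. Both HeyA8 comparisons share 1 control array, so they are not independent.

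**Figure D1:**
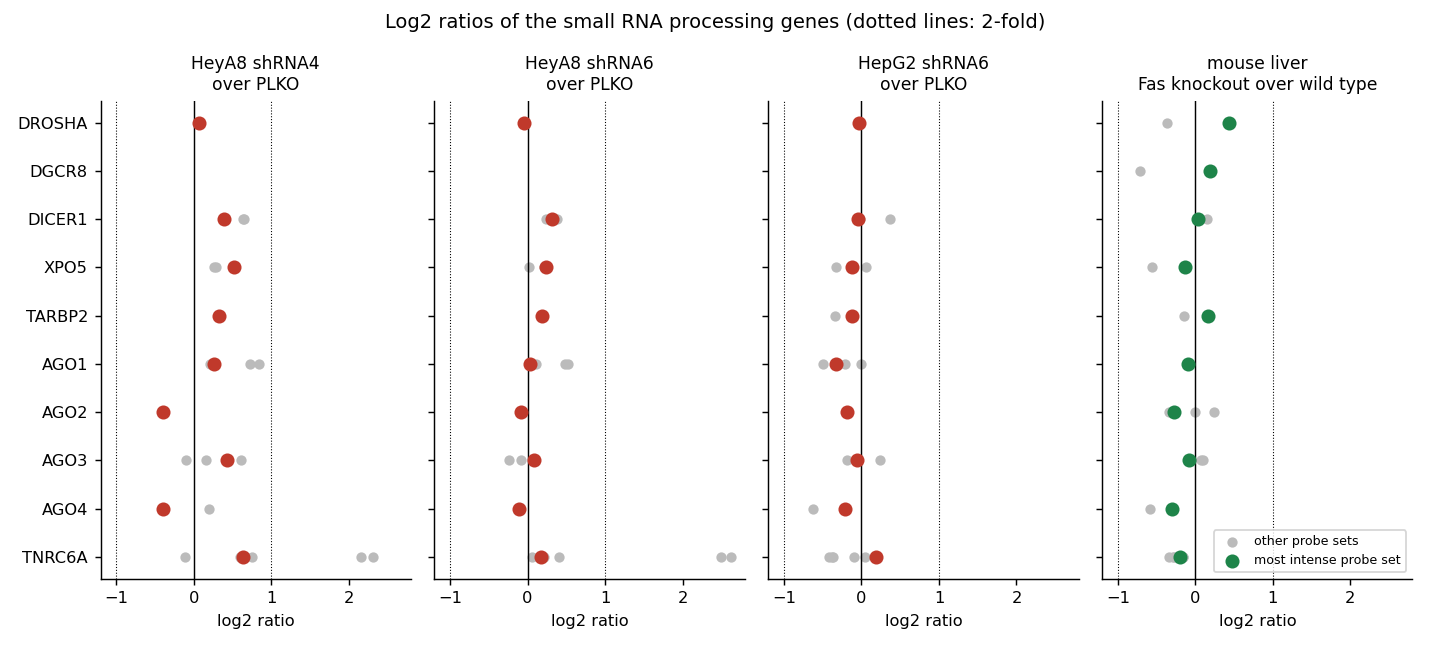
Log2 ratios (horizontal axis) of each gene (rows) in HeyA8 with shRNA4 and with shRNA6, in HepG2 with shRNA6 and in Fas knockout mouse liver, each over its control. Coloured points are the most intense probe set of a gene and grey points its other probe sets above the array median on a compared array; all coloured points lie inside the dotted 2-fold lines, with the highest, TNRC6A with shRNA4, at 0.64.

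The nuclear step is represented on the human arrays by DROSHA alone. DROSHA, the nuclease that cuts the primary transcript, gave 3311 with shRNA4 and 3063 with shRNA6 against 3167 in the HeyA8 control, and 3493 with shRNA6 against 3560 in the HepG2 control. The control value lay between those of the hairpin arrays in HeyA8. Its log2 ratios were 0.06, -0.05 and -0.03, each smaller than the median absolute difference of 0.19 between the HeyA8 hairpin arrays over 12242 genes. The common effect of the hairpins over both cell lines was -0.01 ± 0.09 (SE, limma over 5 arrays), with a 95% interval from -0.22 to 0.21.

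XPO5, the export receptor that hairpins from a vector share with microRNA precursors, was lowest in HeyA8 on the control array. Its most intense probe set gave 2414 with shRNA4 and 1981 with shRNA6 against 1675 in the HeyA8 control, and 2383 with shRNA6 against 2594 in the HepG2 control. The log2 ratios were 0.52 and 0.24 in HeyA8 and -0.12 in HepG2, so the cell lines lay on opposite sides of 0. All 3 probe sets were above 0 in HeyA8, with means of 0.36 ± 0.14 with shRNA4 and 0.16 ± 0.12 with shRNA6 (SD over 3 probe sets), and 1 of 3 was above 0 in HepG2. The hairpin arrays of HeyA8 themselves differed by 0.28. In limma the hairpin effect in HepG2 minus that in HeyA8 was -0.50 ± 0.27 (SE) with a 95% interval from -1.16 to 0.16 and did not pass (adjusted p = 0.999).

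DICER1, the cytoplasmic nuclease, showed the same order of arrays in HeyA8. Its most intense probe set gave 2162 with shRNA4 and 2051 with shRNA6 against 1644 in the HeyA8 control, and 2645 with shRNA6 against 2738 in the HepG2 control. Both hairpin arrays of HeyA8 were above their control, and the HepG2 arrays were close to each other. The log2 ratios were 0.39, 0.32 and -0.05. The 3 HeyA8 probe sets above the array median gave 0.56 ± 0.15 with shRNA4 and 0.31 ± 0.07 with shRNA6 (SD over 3 probe sets). In HepG2 the mean over the 4 kept DICER1 probe sets was 0.07 ± 0.20 (SD), on the other side of 0 from the most intense one. With shRNA4 12.0% of all genes had a higher ratio than DICER1.

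TARBP2, the double-stranded RNA binding partner of DICER1, gave 832 with shRNA4 and 748 with shRNA6 against 658 in the HeyA8 control, and 944 with shRNA6 against 1029 in the HepG2 control. Its log2 ratios were 0.33, 0.18 and -0.12. The hairpin arrays were thus above the control in HeyA8 and below it in HepG2, by amounts that many genes exceeded, since 15.1% of all genes had a higher ratio with shRNA4.

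In HeyA8 AGO1 and AGO3 were above the control and AGO2 and AGO4 below it, and in HepG2 all 4 Argonaute genes were below the control. AGO1 gave 700 with shRNA4 and 593 with shRNA6 against 581 in the HeyA8 control, and 770 with shRNA6 against 966 in the HepG2 control. Its log2 ratios were 0.26, 0.03 and -0.32, and over 4 probe sets they averaged 0.51 ± 0.32, 0.28 ± 0.25 and -0.26 ± 0.20 (SD). All 4 probe sets were above 0 with either hairpin in HeyA8, and all 4 below 0 in HepG2.

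AGO3 gave 350.0 with shRNA4 and 272 with shRNA6 against 256 in the HeyA8 control, and 394 with shRNA6 against 412 in the HepG2 control, log2 ratios of 0.43, 0.08 and -0.06. Its probe sets did not move together: with shRNA4 they ran from -0.09 to 0.61, and with shRNA6 in HeyA8 their mean was -0.04 ± 0.16 (SD over 4 probe sets), below 0 where the most intense one was above.

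The signal of AGO2 was 2064 with shRNA4 and 2561 with shRNA6 against 2724 in the HeyA8 control, and 861 with shRNA6 against 981 in the HepG2 control. Every hairpin array was below its control, with log2 ratios of -0.40, -0.09 and -0.19. The common effect was -0.22 ± 0.13 (SE, limma over 5 arrays, 95% interval from -0.51 to 0.07), below 0 in all 3 hairpin comparisons (adjusted p = 0.991). The difference between the HeyA8 hairpin arrays, -0.31, was larger than the difference of shRNA6 from the control.

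AGO4 likewise gave 491 with shRNA4 and 600.0 with shRNA6 against 646 in the HeyA8 control, and 470 with shRNA6 against 545 in the HepG2 control. Its log2 ratios were -0.39, -0.11 and -0.21. Another AGO4 probe set near the array median gave 0.20 with shRNA4 and -0.63 in HepG2, and the common effect was -0.23 ± 0.16 (SE, limma over 5 arrays, adjusted p = 0.991).

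AGO4, AGO1 and AGO3 follow one another on chromosome 1, with only the pseudogene CFAP97P1 annotated between AGO1 and AGO3. With shRNA4 AGO4 was at -0.39 where AGO1 and AGO3 were at 0.26 and 0.43, although the other kept AGO4 probe set was at 0.20, and in HepG2 all 3 were below 0. Their promoters are shown because the most intense probe sets of these neighbours differed in direction in HeyA8. Each covers 250 bases before to 50 after the annotated start, in RefSeq on GRCh38.p14, plus strand. Capitals mark GGGCGG (the GC box), CCAAT (the CCAAT box), CCGGAAG (an ETS site) and CACGTG (an E-box), searched on both strands.
AGO4, chr1:35807766-35808065: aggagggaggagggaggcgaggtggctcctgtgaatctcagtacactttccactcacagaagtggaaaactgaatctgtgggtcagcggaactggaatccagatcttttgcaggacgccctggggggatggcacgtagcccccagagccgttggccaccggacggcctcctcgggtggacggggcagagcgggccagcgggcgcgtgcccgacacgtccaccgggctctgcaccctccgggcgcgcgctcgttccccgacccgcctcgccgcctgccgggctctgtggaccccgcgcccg
AGO1, chr1:35882959-35883258: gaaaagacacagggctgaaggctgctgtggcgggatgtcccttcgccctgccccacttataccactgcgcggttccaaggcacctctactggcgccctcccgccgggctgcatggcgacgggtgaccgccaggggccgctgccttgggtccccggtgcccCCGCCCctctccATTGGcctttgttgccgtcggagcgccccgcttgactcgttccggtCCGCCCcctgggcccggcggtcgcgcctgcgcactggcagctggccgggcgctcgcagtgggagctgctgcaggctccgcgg
AGO3, chr1:35930855-35931154: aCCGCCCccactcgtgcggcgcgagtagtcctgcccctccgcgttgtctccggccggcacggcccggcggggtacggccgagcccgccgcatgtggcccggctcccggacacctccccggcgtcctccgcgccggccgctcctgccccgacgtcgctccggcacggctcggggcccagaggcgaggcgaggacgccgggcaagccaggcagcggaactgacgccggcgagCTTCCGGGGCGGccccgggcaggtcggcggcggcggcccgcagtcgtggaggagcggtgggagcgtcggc

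The AGO1 window held the GC box at 2 places and the CCAAT box at 1. The AGO3 window held the GC box at 2 places and the ETS site at 1, and the ETS site overlaps a GC box. None of the 4 motifs was in the AGO4 window. Over 35116 promoters of this length 15786 held a GC box, 34.6% held a CCAAT box, 10.3% the ETS site and 7.26% the E-box. The promoters of 9 of the 10 listed genes were searched, DGCR8 included and AGO2 not, and 8 held a GC box, 6 a CCAAT box, 2 the ETS site and 0 the E-box. A match is only a run of letters in this window.

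TNRC6A, the Argonaute partner that recruits the deadenylases, had the largest ratio among the members. Its most intense probe set gave 3139 with shRNA4 and 2277 with shRNA6 against 2012 in the HeyA8 control, and 2414 with shRNA6 against 2121 in the HepG2 control. Each hairpin array was above its control, with log2 ratios of 0.64, 0.18 and 0.19. With shRNA4 it was the only member at least 1.5-fold higher, 1 of 9, beside 6.21% of all genes, and 5.26% of all genes had a higher ratio. The common effect was 0.31 ± 0.15 (SE, limma over 5 arrays, 95% interval from -0.03 to 0.66), above 0 in all 3 hairpin comparisons (adjusted p = 0.991). In HepG2 only 2 of its 6 probe sets were above 0 and their mean was -0.17 ± 0.26 (SD), so the direction there depended on the probe set.

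A pair of TNRC6A probe sets set the HeyA8 control array apart. The brighter of them, the fourth by mean signal, gave 150 with shRNA4 and 189 with shRNA6 against 20.2 in the HeyA8 control, and 231 with shRNA6 against 302 in the HepG2 control. The dimmer, the last by mean signal, gave 73.8 and 95.9 on the hairpin arrays against 6.71 in the HeyA8 control, and 87.0 with shRNA6 against 121 in the HepG2 control. Only the HeyA8 control lay below the array median, and the log2 ratios were 2.31 and 2.16 with shRNA4 and 2.62 and 2.49 with shRNA6. The other 4 TNRC6A probe sets ranged from -0.12 to 0.75 with shRNA4 and from 0.06 to 0.41 with shRNA6. Of 41091 single-symbol probe sets 45, or 0.110%, were below the median on the HeyA8 control alone and at least 3-fold under the next lowest array. The same count was 38 for the shRNA4 array, 35 for the shRNA6 array of HeyA8, 85 for the HepG2 shRNA6 array and 83 for the HepG2 control. Which transcripts the pair covers was not looked up.

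**Figure D2:**
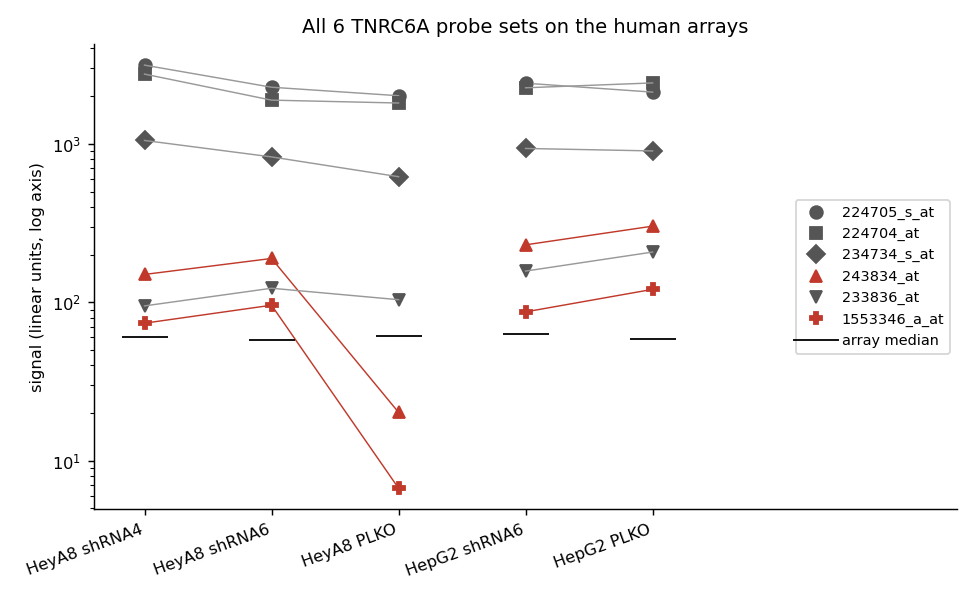
Signal (vertical log axis, linear units) of the 6 TNRC6A probe sets on the 5 human arrays, with lines joining arrays of one cell line and black dashes at the array medians. The pair in red is at 20.2 and 6.71 on the HeyA8 PLKO array and are above the median on the other 4 arrays.

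The HeyA8 control array was the lowest of the 5 human arrays for 6 of the 9 members, namely DICER1, XPO5, TARBP2, AGO1, AGO3 and TNRC6A. It was the lowest for 19.3% of 13936 genes. Every HeyA8 ratio above rests on this array, so a low value on it and a high value on both hairpin arrays cannot be told apart. Between the hairpin arrays themselves the members differed by 0.08 (DICER1) to 0.46 (TNRC6A) in size, within the 90th percentile of 0.69 over all genes. That percentile also exceeds every hairpin-to-control ratio of the members' most intense probe sets.

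**Figure D3:**
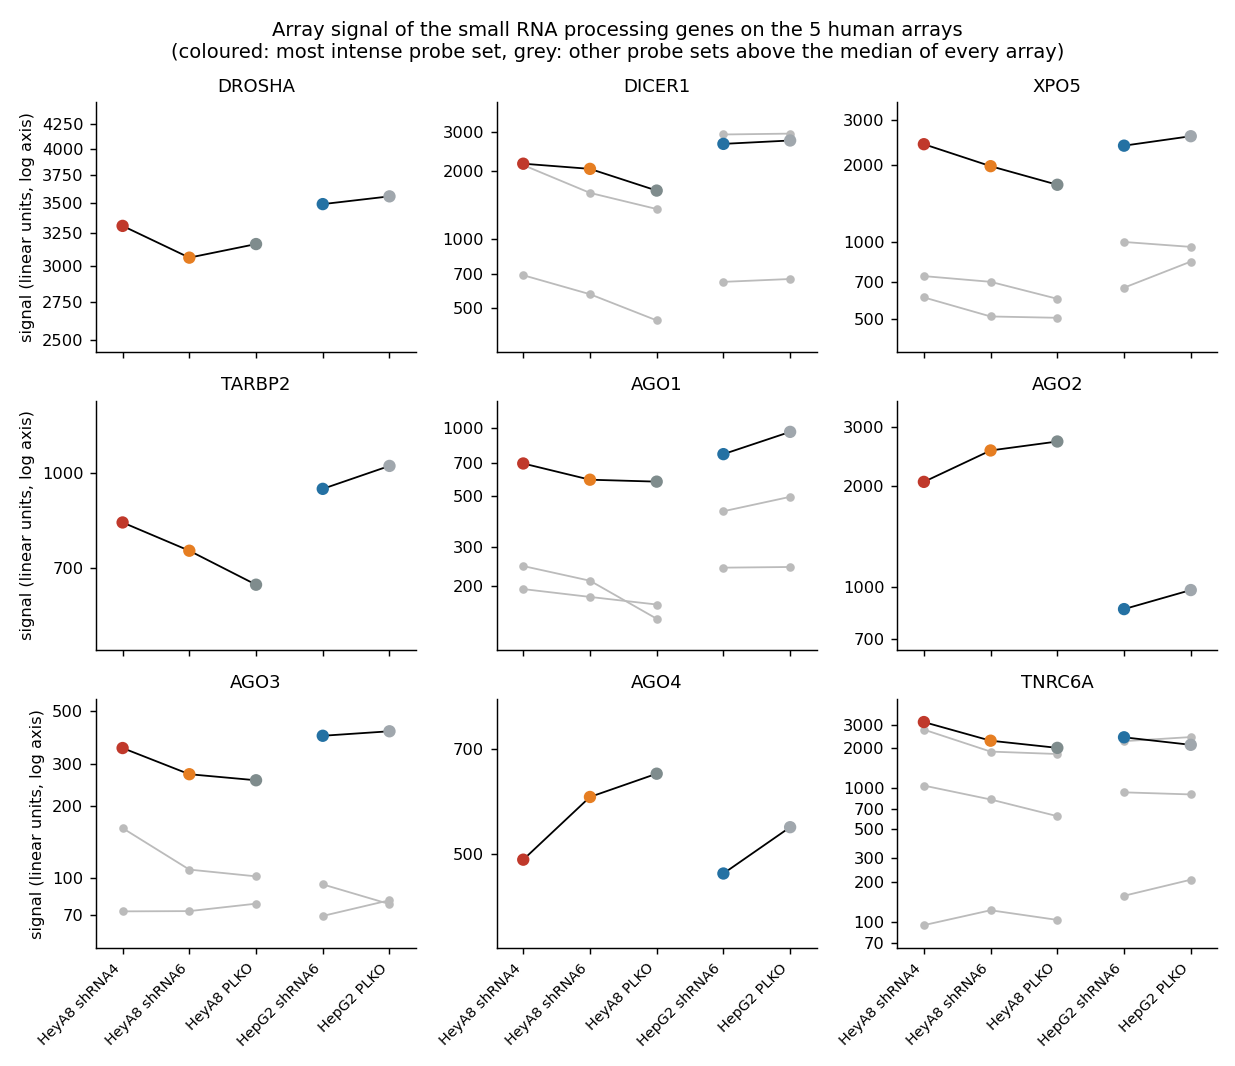
Signal (vertical log axis, linear units, ranges differ between panels) of 9 genes on the 5 human arrays. Coloured points are the most intense probe set and grey points other probe sets above the median of every array; AGO2 and AGO4 are lower on both hairpin arrays of HeyA8 than on its PLKO array, and 6 genes are lowest of all arrays on the HeyA8 PLKO array.

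To estimate what the hairpin arrays share, the 5 human arrays were fitted together in limma with cell line as a term, with 2 residual degrees of freedom. Its residual spread comes from shRNA4 against shRNA6 within HeyA8 and from HepG2 responding unlike HeyA8. The labels name no separate cultures, so p-values measure only how far these arrays vary, possibly for technical reasons. None of the 9 members passed an adjusted p of 0.05, nor did any of 13936 genes (0%), and 0 members and 568 genes had an unadjusted p below 0.05. Common effects ran from -0.23 (AGO4) to 0.31 (TNRC6A), with 5 of 9 above 0, beside 7141 of 13936 genes. The upper and lower 95% limits reached no further than 0.66 for TNRC6A and -0.60 for AGO4. For the interaction of hairpin and line, 0 of 9 members and 0 of 13936 genes (0%) passed, and 0 and 613 had an unadjusted p below 0.05. The estimates, HepG2 minus HeyA8, were below 0 for 7 members, from -0.50 (XPO5) to -0.04 (DROSHA), and above 0 for AGO2 (0.06) and AGO4 (0.04). Among all genes 6720 of 13936 of these estimates were above 0. This fit has 1 residual degree of freedom and takes HepG2 to vary like HeyA8.

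**Figure D4:**
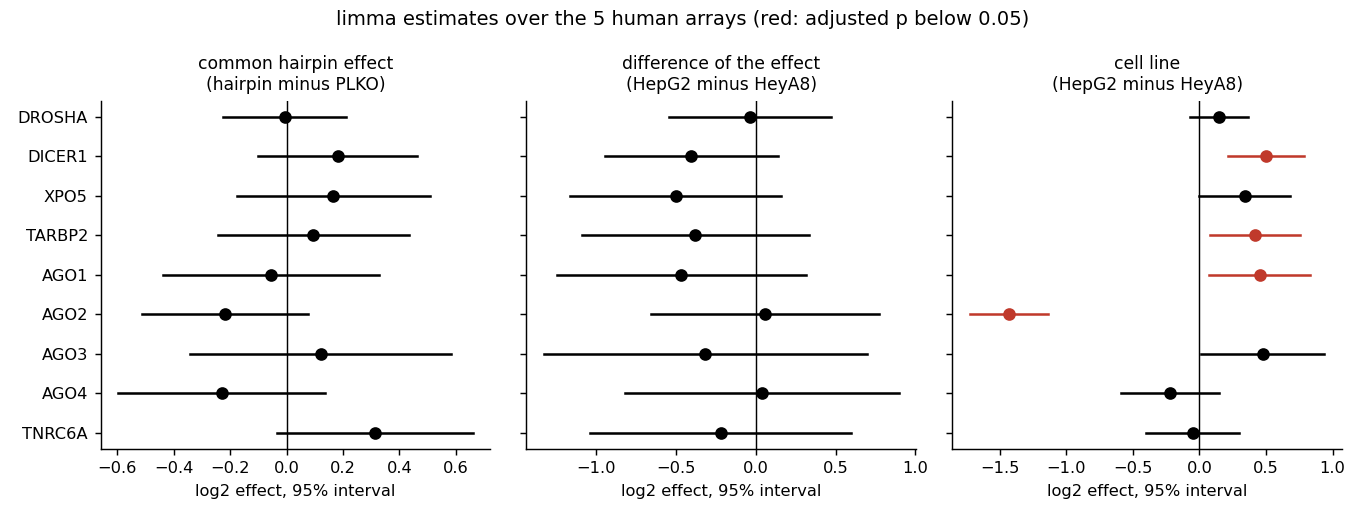
limma estimates (points) with 95% intervals (lines) for 9 genes: the common hairpin effect, its interaction with the line (HepG2 minus HeyA8), and the difference between the cell lines, all in log2 units. Intervals of the first and second panels include 0 for every gene, and in the third AGO2 lies at -1.43, apart from the others.

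Mouse liver is the contrast without a hairpin. Livers hold several cell types, and fewer cells of a type and less RNA per cell cannot be told apart in bulk tissue. Markers of other liver cells had a summed signal of 7274 in the knockout and 8854 in the wild type over 10 markers. In each liver 7 of them were above the array median, with Cd3e and Krt19 below it in both. Des was above it only in the knockout (92.8, against 57.6 in the wild type). Epcam was above it only in the wild type (198, against 53.5 in the knockout). The part of these cells in the differences was not tested. Drosha gave 626 in the knockout against 459 in the wild type, a log2 ratio of 0.43 and the largest of the 10, but its other kept probe set gave -0.37. Dgcr8, the partner of Drosha, gave 319 in the knockout against 277 in the wild type, a ratio of 0.19, with another probe set at -0.71. Dicer1 gave 573 in the knockout against 559 in the wild type, a ratio of 0.04 with its other probe set at 0.15.

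Xpo5 gave 262 in the knockout against 289 in the wild type, a log2 ratio of -0.13 with another probe set at -0.56. Tarbp2 gave 389 in the knockout against 347 in the wild type, a ratio of 0.16 with another at -0.14. Of the members that were above 0 with both hairpins in HeyA8, Xpo5, Ago1, Ago3 and Tnrc6a were below 0 in this liver and Dicer1 and Tarbp2 above 0. These directions are those of the most intense probe sets, and other probe sets of Ago3 and Tarbp2 lay on the other side of 0. Tnrc6a was below 0 on all 7 kept probe sets with a mean of -0.23 ± 0.07 (SD).

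Among the mouse Argonaute genes Ago1 gave 555 in the knockout against 597 in the wild type, a log2 ratio of -0.10. Ago2 gave 437 in the knockout against 534 in the wild type, a ratio of -0.28, and its 4 probe sets ran from -0.34 to 0.24. Ago3 gave 226 in the knockout against 240 in the wild type, a ratio of -0.08, with its other kept probe sets at 0.07 and 0.10. Ago4 gave 125 in the knockout against 158 in the wild type, a ratio of -0.30 with another probe set at -0.59. Tnrc6a gave 1831 in the knockout against 2104 in the wild type, a ratio of -0.20. With 1 liver per genotype these are differences between 2 animals.

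By limma most members differed more between the cell lines than between hairpin and control. The exceptions were TNRC6A (-0.05 between the lines, common hairpin effect 0.31) and AGO4 (-0.22 and -0.23). In the same limma fit 4 of 9 members passed an adjusted p of 0.05 between HepG2 and HeyA8, 3 higher and 1 lower in HepG2, beside 58% of all genes (30% higher and 28% lower). The members' share is thus no larger than that of the genes as a whole. AGO2 had 861 and 981 in HepG2 against 2064, 2561 and 2724 in HeyA8, a log2 effect of -1.43 ± 0.13 (SE, limma, adjusted p = 3.20e-05). It passed in all 14 settings, from -1.51 to -1.36. DICER1 was higher in HepG2, at 2645 and 2738 against 2162, 2051 and 1644 in HeyA8, an effect of 0.50 ± 0.12 (SE, limma, adjusted p = 0.00827). That call was lost without the HeyA8 control (adjusted p = 0.117, effect 0.33), without the HepG2 control (also 0.117) and with no variance trend (0.0617).

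AGO1 (0.45 ± 0.16, SE, limma adjusted p = 0.0450) and TARBP2 (0.42 ± 0.15, limma adjusted p = 0.0389) were higher in HepG2 by less. Neither passed when an array other than the HeyA8 shRNA4 array was left out, with adjusted p-values up to 0.374 for AGO1 and 0.323 for TARBP2. XPO5 (0.34) and AGO3 (0.48) did not pass, except that both did without the shRNA4 array and XPO5 did on the mean of its probe sets. AGO3 was -0.30 on the mean of its probe sets. DROSHA (0.15), AGO4 (-0.22) and TNRC6A (-0.05) passed in none of 14 settings.

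Other genes of the pathway were described by lists. Nuclear partners of DROSHA and of the cap and export machinery had log2 medians over 11 genes of 0.09 for shRNA4, 0.11 for shRNA6 in HeyA8 and -0.03 for HepG2, and -0.11 over 10 in mouse liver. Partners of DICER1 and factors of Argonaute loading had medians of 0.11, 0.06 and -0.05 over 18 genes, and 0.04 over 16 in mouse liver. Silencing effectors, which deadenylate and decap the target, had medians of 0.01, -0.04 and -0.04 over 26, 26 and 25 genes and 0.02 over 24 in mouse liver. Tailing and turnover factors had medians of -0.08, -0.01 and 0.07 over 11, 11 and 13 genes and -0.07 over 10 in mouse liver. In these 4 lists only PABPC1, the poly(A)-binding protein, was at least 2-fold different in any hairpin comparison, on a dim probe set that gave 45.2 with shRNA4 and 34.6 with shRNA6 against 86.6 in the HeyA8 control, log2 ratios of -0.78 and -1.07. It was kept only because the control was above the array median. In mouse liver 0 genes of these lists were.

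The list medians of the double-stranded RNA sensors were -0.21 with shRNA4 and -0.59 with shRNA6 in HeyA8 over 8 genes, 0.10 in HepG2 over 7 and -0.03 in mouse liver over 7. In HeyA8 OAS2 and OASL were kept only because the control was above the array median. Their ratios therefore had to be below 0, and the HeyA8 medians include them. In HepG2 OASL, at 0.89, was kept only because the shRNA6 array was above its median, and the HepG2 median includes it. The other kept sensors in HepG2 were EIF2AK2 (-0.06), OAS3 (-0.01), RIGI (-0.005), IFIH1 (0.10), MAVS (0.13) and OAS1 (0.35). Of the other kept sensors OAS3 was at -0.14 with shRNA4 and -0.64 with shRNA6 in HeyA8. TLR3 was at 0.10 and -0.44, and MAVS at -0.14 and 0.19. RIGI, a cytoplasmic sensor above the median on all human arrays, gave 228 with shRNA4 and 188 with shRNA6 against 278 in the HeyA8 control, log2 ratios of -0.27 and -0.54. IFIH1 (MDA5), another cytoplasmic sensor, gave 131 with shRNA4 and 63.4 with shRNA6 against 182 in the HeyA8 control, log2 ratios of -0.44 and -1.35. OAS2, an antiviral enzyme activated by double-stranded RNA, gave 27.7 with shRNA4 and 6.19 with shRNA6 against 82.7 in the HeyA8 control, close to the array median, with ratios of -1.24 and -2.34. EIF2AK2 (PKR), the kinase sensor, was nearly level, at 1722 with shRNA4 and 1759 with shRNA6 against 1779 in the HeyA8 control, ratios of -0.05 and -0.02. In limma 0 of 9 sensors passed for the common effect and 0 of 9 for its interaction with the line, as did 0 of 13936 genes for each.

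**Figure D5:**
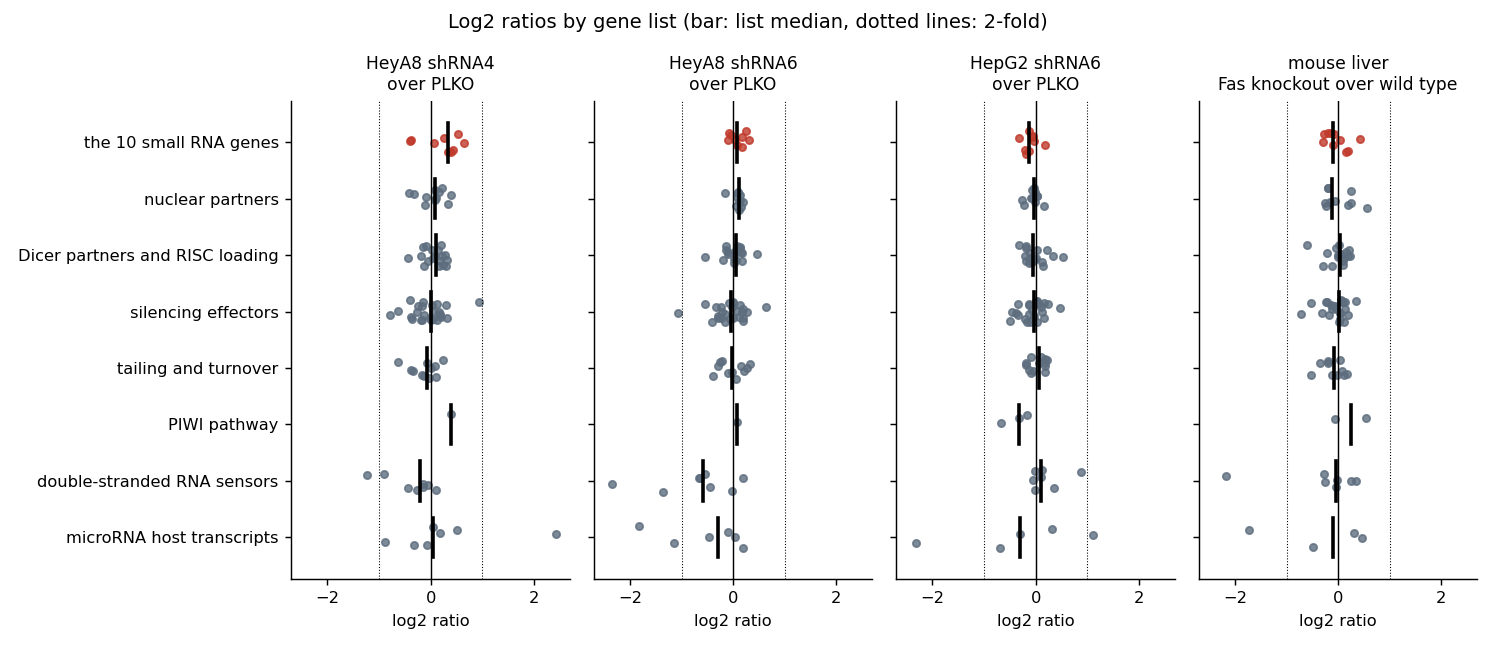
Log2 ratios (horizontal axis) of the genes of 8 lists (rows) in the 4 comparisons, each over its control, with a black bar at each list median and dotted lines at 2-fold. The small RNA genes, in red, stay within the dotted lines, and genes kept through only 1 of the compared arrays, such as OAS2, account for some of the points beyond them.

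Among the other lists LIN28B and TRIM71 were high in HepG2 and below the array median in HeyA8. LIN28B, which binds let-7 precursors and blocks their processing, gave 5900 with shRNA6 and 6747 in the control of HepG2, against 15.3 with shRNA4, 4.41 with shRNA6 and 3.92 in the control of HeyA8 (limma adjusted p = 2.37e-07). TRIM71, a let-7 target and regulator of stem cells, gave 7687 and 8228 in HepG2 against 31.7, 24.8 and 55.9 in HeyA8 (limma adjusted p = 9.89e-08). LIN28B and TRIM71 were kept only through the HepG2 arrays, so the filter fixed their direction, also in the count of higher genes below. HENMT1, a small RNA methyltransferase, was lower in HepG2 (-2.17 ± 0.23, SE) and PARN, a poly(A) ribonuclease, higher (1.22 ± 0.12, SE). Of 13 tailing and turnover genes 7 were higher in HepG2 and 3 lower by limma, beside the 30% and 28% of all genes.

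Among 18 DICER1 partners and loading factors 5 were higher in HepG2 and 5 lower by limma. These counts and those of the lists that follow stand beside the 30% of all genes that were higher and the 28% that were lower. IPO8, an importin reported to bind Argonaute, had an effect of -1.40 ± 0.13 (SE), and FXR1, a relative of the fragile X protein, of -1.11 ± 0.09. SND1, a nuclease of the silencing complex, was at 1.11 ± 0.14 and PRKRA (PACT), the other double-stranded RNA binding partner of DICER1, at 0.85 ± 0.09. Of 26 silencing effectors 7 were higher and 8 lower, among them the exonuclease XRN1 (-1.56 ± 0.13), PABPC1 (-1.45 ± 0.48, on its dim probe set, in 8 of 13 settings), the deadenylase scaffold CNOT1 (1.15 ± 0.10) and CNOT6L (1.08 ± 0.12). Of 11 nuclear partners the cap-binding genes NCBP2 (-0.96 ± 0.10) and NCBP1 (-0.63 ± 0.14) were lower and SRRT (0.23 ± 0.08) was higher, SRRT in 6 of 14 settings. Of 9 sensors 3 were higher and 2 lower. The adaptor MAVS was at 2.01 ± 0.15 and IFIH1 at 1.16 ± 0.36, the IFIH1 call being made in 10 of 13 settings. OAS1 gave 114 and 86.4 in HepG2 against at most 14.8 in HeyA8, and TLR3 gave 25.7 and 8.50 in HepG2 against 122, 79.7 and 113 in HeyA8. OAS1 was kept only through HepG2 arrays, and TLR3 and PABPC1 only through HeyA8 arrays, so the filter fixed their direction.

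The transcripts that host microRNA hairpins are the substrates of DROSHA. Of 8 tested 0 were higher in HepG2 and 4 were lower by limma, beside 30% and 28% of all genes. MIR100HG gave 2.28 with shRNA6 and 2.42 in the control of HepG2, against 2225 with shRNA4, 2865 with shRNA6 and 2788 in the control of HeyA8 (adjusted p = 6.32e-08). MIR99AHG gave 14.8 and 1.41 in HepG2 against 127, 99.3 and 85.7 in HeyA8 (limma adjusted p = 0.00165). MIR100HG and MIR99AHG were kept only through the HeyA8 arrays, so the filter fixed their direction, also in the count of lower transcripts above. MIRLET7BHG gave 55.5 and 71.8 in HepG2 against 248, 183 and 260 in HeyA8 (limma adjusted p = 8.08e-04). DLEU2 gave 147 and 116 in HepG2 against 300.3, 244 and 262 in HeyA8, and its call was lost in 3 of 13 settings.

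The let-7, miR-100 and miR-125 family members inside the 3 most different hosts are shown because they belong to a few seed families, one of which LIN28B acts on. The mature 5′ arms are from RefSeq on GRCh38.p14, 5′ to 3′, with the seed (bases 2 to 8) in capitals.
let-7a-5p, in MIR100HG (chr11:122146568-122146589, minus strand) and MIRLET7BHG (chr22:46112752-46112773, plus strand): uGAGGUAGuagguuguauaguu
let-7c-5p, in MIR99AHG (chr21:16539838-16539859, plus strand): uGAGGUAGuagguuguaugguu
let-7b-5p, in MIRLET7BHG (chr22:46113691-46113712, plus strand): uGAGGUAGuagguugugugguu
miR-100-5p, in MIR100HG (chr11:122152275-122152296, minus strand): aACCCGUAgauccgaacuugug
miR-99a-5p, in MIR99AHG (chr21:16539101-16539122, plus strand): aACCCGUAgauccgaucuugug
miR-125b-5p, in MIR100HG (chr11:122099809-122099830, minus strand) and MIR99AHG (chr21:16590253-16590274, plus strand): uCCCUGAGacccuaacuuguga
MIR100HG and MIR99AHG thus each hold the let-7, miR-100/99a and miR-125b seeds, and MIRLET7BHG holds the let-7 seed at 2 places. These arrays measured host transcripts and not the mature microRNAs.

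Under the hairpins several host ratios come from genes kept through 1 of the compared arrays, so the filter largely set their direction. In HeyA8 these were MIR181A2HG with shRNA4, and MIR210HG and MEG3 with shRNA6. In HepG2 they were MEG3, through the shRNA6 array, and MIR31HG, MIR210HG and MIRLET7BHG, through the control. With shRNA4 4 of 7 were above 0 (median 0.04), with shRNA6 in HeyA8 2 of 6 (median -0.29) and in HepG2 2 of 5 (median -0.31). The HepG2 median is the ratio of MIRLET7BHG, and the ratios below 0 there are all of genes kept only through the control. MIR181A2HG gave 228 with shRNA4 and 24.8 with shRNA6 against 32.4 in the HeyA8 control, a log2 ratio of 2.42 with shRNA4. MIR210HG gave 74.6 with shRNA4 and 11.4 with shRNA6 against 72.1 in the HeyA8 control, with a ratio of -1.82 for shRNA6. MEG3 gave 61.7 with shRNA4 and 49.7 with shRNA6 against 124 in the HeyA8 control, with a ratio of -1.14 for shRNA6, and 86.5 with shRNA6 against 33.1 in the HepG2 control, a ratio of 1.12. MIR31HG gave 7.31 with shRNA6 against 86.4 in the HepG2 control, a ratio of -2.32. In limma 0 of 8 passed for the common effect, as did 0 of 13936 genes.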

How the data were processed

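Total RNA of 7 samples, 1 per group, was measured on Affymetrix arrays. Per the submitters' processing notes the deposited values come from MAS5, as linear signal intensities. Its version: not given in the sources used here. No detection calls were used. Control probe sets were left out. Gene names came from the platform annotation, which gave 1 symbol to 41091 human and 34945 mouse probe sets, several to 1801 and 932, and none to 11721 and 9160. Probe sets with several symbols named no gene.

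Of several probe sets per gene the most intense on average was used (_x_at only where there was no other), and the gene was kept when 1 compared array was above its own median. Differences are of log2(signal + c), with c the 25th percentile of the table, 12.6 in human and 20.5 in mouse. With 1 array per group, single comparisons were counted by size and not tested. Cell line and hairpin were fitted over the human arrays with limma 3.58.1 (R 4.3.3) with trended prior variance (2 residual degrees of freedom, Benjamini-Hochberg over all genes), and a second fit their interaction. The fit was also run on simulated data, with noise drawn from the HeyA8 hairpin arrays and the same hairpin effect in both lines. That setting holds no HepG2 response unlike HeyA8, so it cannot check the fit for such a response. For arrays, their number limits the precision. The members, lists and tests were chosen with earlier results of these data known. All members were named. Other listed genes were named when at least 2-fold different in a comparison, or past the limma threshold between cell lines, at most 4 per list with the largest ratio. EIF2AK2, RIGI and OAS3, and the hairpin ratios of TLR3, MAVS, OAS1, OASL and MIRLET7BHG, were named after their values were seen. Other steps used Python 3.11.15 with pandas 2.3.3.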

Additional observations from a re-analysis of the deposited data

How the results depend on the processing

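Other pseudocounts (1 and 50), scalings, probe set rules and filters left each member median in the 4 comparisons within the typical spread between the HeyA8 hairpin arrays (SD 0.14). Scaling arrays to equal medians shifted the median of all genes in HepG2 by -0.11, and 8 of 9 members stayed below it. With the mean over probe sets 1 member, TNRC6A, was at least 2-fold different with shRNA4, and at a 1.5-fold threshold the count was also 1, against 0. The TNRC6A mean includes the pair of probe sets at 2.31 and 2.16, while its others ranged from -0.12 to 0.75. Of 253 recomputed member ratios 16 moved by more than that spread, and 7 changed sign, all of them at most 0.19 in size in the original setting. For the common effect and its interaction with the cell line 0 members passed in any alternative run, with adjusted p-values of the common effect of 0.886 or more, and with no cell line term the AGO2 effect was 0.02 against -0.22. Between HepG2 and HeyA8 4 members passed, against 2 with quantile normalization, 2 with equal medians, 2 with no filter and 1 with no variance trend, and between 1 and 6 with an array left out (1 without either PLKO array, 2 without either shRNA6 array, 6 without the shRNA4 array). A group left with 1 array is taken to vary like the others. No paired analysis was possible because each group is 1 array. The cause of these changes was not tested.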

Other observations

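Of 9 listed genes of the PIWI pathway, the germline relatives of the Argonaute system, 6 were below the median on all 5 human arrays, where 13936 of 19775 genes were above it on at least 1. They were PIWIL1, PIWIL4, DDX4, MAEL, TDRD1 and TDRD9, with signals from 1.85 to 38.5. TDRKH, a binding partner of PIWI proteins, gave 217 with shRNA6 and 274 in the control of HepG2, against 446 with shRNA4, 355 with shRNA6 and 338 in the control of HeyA8, a log2 effect of -0.60 ± 0.21 (SE, limma, adjusted p = 0.0414) that passed in 7 of 14 settings.

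In mouse liver Oas2 gave 27.3 in the knockout against 196 in the wild type, a log2 ratio of -2.18, and the imprinted noncoding RNA Meg3 gave 85.0 in the knockout against 328 in the wild type, a ratio of -1.72. Oas2 was kept only because the wild type was above the array median. They were the only genes of these lists at least 2-fold different between the livers.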
